A study of Mus musculus with 8 samples.

Results

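The 51 genes described here encode the nuclear pore and the machinery that moves cargo between nucleus and cytoplasm, and they were followed in mouse myeloid progenitors given a Trim27 virus or a GFP virus. Members were the symbols in the count table that name nucleoporins (Nup), importins (Kpna, Kpnb1, Ipo, Tnpo), exportins (Xpo, Cse1l), the small GTPase Ran and its binding and activating proteins (Ranbp, Rangap1), with at least 100 counts summed over the 8 libraries. This gave 51 of the 33435 named genes, of which 10843 reached 100 counts. They were 20 pore genes (the Nup symbols and Ranbp2), 25 carriers (importins and exportins) and 6 genes of the Ran cycle. The pattern matched 56 symbols. Ranbp6, with 107 counts, lay just inside the limit and Nup210l, with 72, just outside, while Kpna7, Ranbp3l, Nup62cl and Kpna2-ps had no count in any library.

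Hematopoietic stem and progenitor cells (HSPCs) of C57BL/6J mouse fetal livers, taken at embryonic day 14.5, received 1 of these viruses, and the polyadenylated RNA of myeloid progenitors sorted from them was sequenced. There were 4 Trim27 libraries and 4 GFP libraries, so the cells of both groups had met a virus. The sources used here do not give the vector, the promoter in front of Trim27 or any selection of infected cells. Nor do they say if each library stems from its own culture or animal. Every p-value below therefore measures the spread between libraries only, which could be purely technical.

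The nuclear pore complex is the channel through the nuclear envelope. Its scaffold is built from the Y complex and the inner ring, its channel is lined by nucleoporins with phenylalanine-glycine repeats, and filaments reach into the cytoplasm while a basket reaches into the nucleus. Carriers of the importin beta family bind cargo directly or through an importin alpha adaptor, and Ran bound to GTP releases imported cargo in the nucleus and loads exported cargo there. In blood-forming cells, NUP98 and NUP214 are known as partners in leukemia fusion genes.

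The bases before the start of transcription are printed for the 4 pore genes that rose most and for the carriers that rose most (Xpot) and fell most (Ipo7) among those counted in both groups, so that promoters of genes that moved together and apart can be read side by side. Each is the 250 bases before the annotated start, 5′ to 3′ on the gene's own strand, from RefSeq on GRCm38.p6, which is a different build from that of the counts (NCBIM37). The windows are chr15:8109063-8109312, plus strand (Nup155), chr2:31974200-31974449, plus strand (Nup214), chr5:92435200-92435449, minus strand (Nup54), chr10:58446602-58446851, plus strand (Ranbp2), chr10:121626333-121626582, minus strand (Xpot) and chr7:110018065-110018314, plus strand (Ipo7). Capitals mark matches on either strand to the E-box, the ETS motif, the NRF1 motif or the CCAAT box, whose letters are given with their shares after the sequences.
Nup155: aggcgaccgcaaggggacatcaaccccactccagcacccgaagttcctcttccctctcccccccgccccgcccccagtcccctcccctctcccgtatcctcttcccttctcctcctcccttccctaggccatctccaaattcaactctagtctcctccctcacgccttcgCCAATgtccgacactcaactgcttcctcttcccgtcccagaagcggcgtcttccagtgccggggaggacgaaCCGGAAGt
Nup214: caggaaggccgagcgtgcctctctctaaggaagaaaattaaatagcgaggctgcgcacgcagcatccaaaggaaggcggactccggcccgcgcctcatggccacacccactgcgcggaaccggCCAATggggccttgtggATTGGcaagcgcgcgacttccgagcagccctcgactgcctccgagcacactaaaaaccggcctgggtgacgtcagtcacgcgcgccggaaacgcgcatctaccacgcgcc
Nup54: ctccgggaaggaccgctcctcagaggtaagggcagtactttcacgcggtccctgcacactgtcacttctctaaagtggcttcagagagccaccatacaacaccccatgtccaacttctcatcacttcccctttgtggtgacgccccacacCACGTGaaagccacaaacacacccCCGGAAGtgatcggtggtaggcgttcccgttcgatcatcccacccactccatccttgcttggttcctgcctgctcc
Ranbp2: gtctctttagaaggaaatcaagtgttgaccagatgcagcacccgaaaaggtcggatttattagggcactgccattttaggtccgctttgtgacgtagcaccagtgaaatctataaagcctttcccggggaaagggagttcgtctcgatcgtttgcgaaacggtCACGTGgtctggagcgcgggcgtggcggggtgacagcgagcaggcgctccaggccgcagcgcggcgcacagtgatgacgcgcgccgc
Xpot: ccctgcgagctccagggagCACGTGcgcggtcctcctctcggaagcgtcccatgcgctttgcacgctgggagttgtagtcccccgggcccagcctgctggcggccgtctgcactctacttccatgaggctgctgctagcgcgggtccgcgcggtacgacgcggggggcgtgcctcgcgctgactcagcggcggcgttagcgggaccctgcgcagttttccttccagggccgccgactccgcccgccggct
Ipo7: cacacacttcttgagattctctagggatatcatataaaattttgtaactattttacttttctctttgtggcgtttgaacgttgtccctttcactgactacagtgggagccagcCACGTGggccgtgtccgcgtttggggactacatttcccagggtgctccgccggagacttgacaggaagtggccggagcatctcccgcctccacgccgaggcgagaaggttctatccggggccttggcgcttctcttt

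Matches to the ETS motif and the CCAAT box were found before Nup155, a pair of CCAAT boxes before Nup214, an E-box and an ETS motif before Nup54, and an E-box before Ranbp2. An E-box was also found before Xpot, which rose, and before Ipo7, which fell. The RefSeq table held 40 of the 51 members, with 20 promoters for 17 pore genes and 23 promoters for 19 carriers. The E-box was searched as CACGTG and was present in 4 pore promoters, 3 carrier promoters and 6.02% of all 32851 promoters of this length. The ETS motif, written here as CCGGAAG, was in 5 pore promoters, 2 carrier promoters and 6.91% of all. For the NRF1 motif the letters were GCATGCGC, found in 3 pore promoters, 1 carrier promoter and 2.26% of all. The CCAAT box was in 10 pore promoters, 9 carrier promoters and 33.8% of all. Promoters of the genes tested here held the E-box in 8.61%, the ETS motif in 14.6%, the NRF1 motif in 4.76% and the CCAAT box in 35.3%. These matches describe letters only, and some genes have more than 1 promoter in the table.

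The GFP libraries held 9257889 to 10747794 counts each and the Trim27 libraries 10551137 to 16366571. Levels are given as CPM, the field's usual depth-scaled counts, relative to the TMM-scaled library size, where TMM is edgeR's scaling between libraries. Trim27 itself ranged from 171 to 191 CPM under the GFP virus and from 268 to 311 CPM under its own virus. Its log2 fold change was 0.70, and 0.34 once each library's dependence on transcript length was taken out. For scale, 31.3% of all genes tested rose at least 2-fold. The myeloid progenitor marker Mpo, the myeloperoxidase gene, averaged 551 ± 28.3 CPM with GFP against 488 ± 32.4 CPM with Trim27 (SD, n = 4 each). Summed over 8 myeloid progenitor markers, levels spanned 1537 to 1650.0 CPM with GFP and 1109 to 1274 CPM with Trim27. Of these 8 markers 6 fell, and the transcription factor gene Spi1 rose from 67.6 ± 3.31 to 120.0 ± 5.18 CPM. Among all genes tested 47.5% rose and 38% fell, and falls reached 52.6% of genes from 6 to 8 log2 CPM and 64% from 8 to 10. The marker counts in this paragraph are to be read beside those shares. For 5 erythroid markers the sums were 1696 to 1749 and 1228 to 1401 CPM. Of the 5, Klf1, Epor and Hba-a1 fell, while Gata1, a master factor of the lineage, rose from 167 ± 7.56 to 314 ± 14.9 CPM and the transferrin receptor gene Tfrc from 111 ± 8.17 to 155 ± 14.3 CPM. Of 6 hepatocyte markers, Alb, Ttr, Apob and Ahsg had no count at all, as had 4 of 5 endothelial and stromal markers. The other 2 hepatocyte markers, Afp and Apoa1, rose, and the list summed to 1.20 to 1.70 CPM with GFP against 14.3 to 16.4 CPM with Trim27. Apoa1 was at 0 CPM with GFP and 6.05 CPM with Trim27. It passed the filter on low counts only through the Trim27 group, so it had to differ. In bulk samples such as these, fewer cells of a type and less RNA per cell cannot be told apart. Transcripts of ribosomal protein genes took 26.6% to 26.7% of counts with GFP and 18.5% to 19.3% with Trim27, and 11131 to 11850 against 12962 to 13283 genes had a count. The part of these markers and of this composition in the results below was not tested.

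Pore genes mostly rose with Trim27, whereas carriers moved both ways. The 20 pore genes comprised 15 that rose, 2 that fell and 3 that did not pass the test. Of 25 carriers, 11 rose, 9 fell and 5 did not pass, and of 6 Ran cycle genes 3 rose, 2 fell and 1 did not pass. Among all 11040 genes tested, 47.5% rose and 38% fell. The share that rose was 75% for pore genes and 44% for carriers, the latter near the background. Calls rest on an adjusted p under 0.05 from the quasi-likelihood test of edgeR, with the Benjamini-Hochberg method applied over all genes tested. The median log2 fold change was 0.82 for pore genes, -0.020 for carriers, 0.058 for Ran cycle genes and 0.14 for all genes. The 2 groups of libraries did not overlap, with Trim27 above, for 14 pore genes and 10 carriers (45.3% of all genes), and with Trim27 below for 2 pore genes and 8 carriers (35.4%). Rises of at least 2-fold were seen in 8 pore genes and 5 carriers (31.3% of all genes), and falls of that size in 4 carriers (16%). All 51 members passed the filter on low counts, Ranbp17 only through the Trim27 group and Ranbp6 only through the GFP group, so that these 2 carriers had to differ. Among the other 23 carriers 10 rose and 8 fell.

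The counts depended on the scaling. With library size alone, 0 pore genes fell by edgeR (0 also at an unadjusted p under 0.05). By comparison, 2 fell by DESeq2's Wald test with its own scaling and 2 by limma-voom with the TMM scaling. With library size alone, 18 pore genes rose, and 15 carriers rose and 6 fell. Of all genes, 56.9% rose and 28.1% fell under that scaling, so the carriers lay near the background there too. It moved the median of all genes from 0.14 to 0.44. Relative to the median of all genes, the pore median was 0.68 higher and the carrier median lower (-0.16) under both scalings. A change of scaling shifts all genes nearly alike, so these distances could hardly differ between the scalings. Once each library's dependence on transcript length was taken out, the distances were 0.37 for pore genes and -0.59 for carriers.

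**Figure D1:**
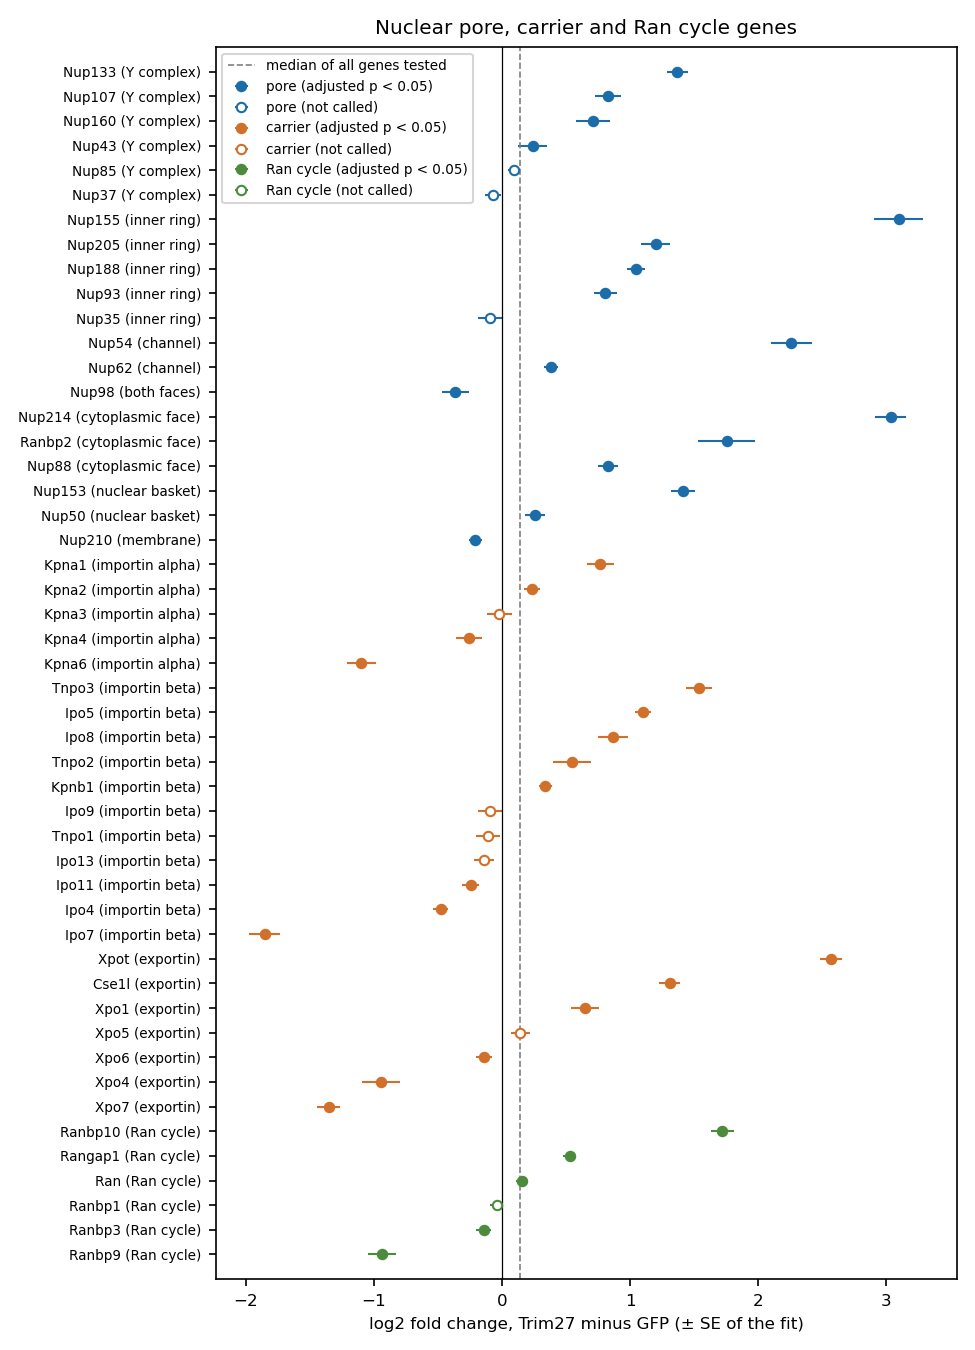
Log2 fold change of each gene (Trim27 minus GFP, x axis; bars are the SE of the edgeR fit), ordered by role and coloured by class, for the 49 members that passed the filter through both groups, with filled points where the adjusted p was under 0.05 and a dashed line at the median of all genes tested (0.14). Pore genes lie mostly to the right of the line and carriers spread from -1.85 (Ipo7) to 2.57 (Xpot), and of the genes called, Nup210, Kpna4, Ipo11, Xpo6 and Ranbp3 change sign under library size alone, as do Nup50 and Kpnb1 once the length trend is removed.

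Of the 6 members placed in the Y complex, the outer scaffold of the pore, 4 rose and 2 did not pass. Among all genes tested 47.5% rose and 38% fell. The symbol rule left out further genes of this complex, of which Seh1l (log2 fold change 0.99) and Ahctf1 (0.79) rose and Sec13 fell (-0.16). Nup98, whose gene also encodes a subunit of it, fell and is described below. Nup133, at the stem of the complex, was at 22.0, 25.4, 25.3 and 26.8 CPM in GFP libraries 1 to 4 and at 68.0, 63.0, 65.8 and 60.8 CPM in Trim27 libraries 1 to 4. All Trim27 libraries lay above all GFP libraries, with a log2 fold change of 1.37 (SE 0.082, edgeR adjusted p = 2.1e-15). Nup107 rose from 18.4 ± 1.15 to 32.8 ± 3.24 CPM (SD, n = 4 each, log2 fold change 0.83) and Nup160 from 12.5 ± 2.50 to 20.4 ± 1.73 CPM (0.71). After each library's dependence on transcript length (its length trend) was taken out, Nup160 was at 0.24 (edgeR adjusted p = 0.102). Nup43 rose by a small amount (0.24, edgeR adjusted p = 0.0452), and its groups overlapped. Its call was lost by limma-voom (0.23), with the replicate number as a block (0.23), and without GFP replicate 2 (0.19), GFP replicate 4 (0.21), Trim27 replicate 1 (0.19), Trim27 replicate 3 (0.13) or Trim27 replicate 4 (0.20). Nup85 was at 379.8 ± 4.17 and 406 ± 16.4 CPM (0.095, edgeR adjusted p = 0.0572), but it passed as a rise under 7 alternatives: DESeq2 size factors (0.12), library size alone (0.40), no filter (0.12), the 10 CPM filter (0.11), DESeq2's Wald test (0.12), limma-voom (0.093) and without Trim27 replicate 1 (0.092). Nup37 was at 121 ± 11.0 and 115 ± 8.06 CPM (-0.070, edgeR adjusted p = 0.314), and its direction turned with the setting. It passed as a rise under library size alone (0.23, edgeR adjusted p = 0.00233) and with the length trend taken out (0.42, edgeR adjusted p = 1.1e-06), and without Trim27 replicate 1 it passed as a fall (-0.15).

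The products of these genes assemble into 1 complex, but their transcripts were far apart in level. Per kilobase of the longest annotated transcript, GFP means ran from 2.19 CPM per kilobase (Nup160) to 170.3 (Nup85), a ratio of 77.6. Trim27 means ran from 3.59 to 182, a ratio of 50.6. Between these ends stood Nup37 (94.4 with GFP), Nup43 (18.5), Nup107 (5.91) and Nup133 (4.29), in the same unit. With Trim27, Nup133 (11.1) and Nup107 (10.5) were close to each other. The genes that rose were the 4 with the lowest levels per length, among them Nup43, whose call was lost under several settings. Over all genes tested the median log2 fold change also declined with abundance. It was 0.12 from 4 to 6 log2 CPM, -0.17 from 6 to 8 and -0.32 from 8 to 10.

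Genes of the inner ring, the scaffold next to the membrane, rose in 4 of 5 cases, where 47.5% of all genes rose. Nup155, which links the ring to the outer scaffold, was at 1.71, 1.81, 1.79 and 2.26 CPM in GFP libraries 1 to 4 and at 19.0, 14.4, 14.9 and 17.3 CPM in Trim27 libraries 1 to 4. It was far higher in every Trim27 library, by 8.66-fold (log2 fold change 3.10, SE 0.19, edgeR adjusted p = 4.0e-15), and its GFP level rested on 69 counts. Nup205 rose from 16.3 ± 3.36 to 37.5 ± 1.46 CPM (1.20), Nup188 from 43.4 ± 2.39 to 89.6 ± 4.84 CPM (1.05) and Nup93 from 33.1 ± 5.47 to 58.1 ± 2.27 CPM (0.81, SD, n = 4 each). Nup35, the membrane-binding member of the ring, was at 39.5 ± 5.63 and 37.1 ± 2.01 CPM (-0.096, edgeR adjusted p = 0.336), and it passed as a rise under library size alone (0.21, edgeR adjusted p = 0.0429). A near-identical copy of Nup35, Gm4353, held 110 counts in the table.

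The channel nucleoporins Nup54 and Nup62, which carry the repeats of the permeability barrier, both rose, where 47.5% of all genes rose. Nup54 was at 3.66, 3.72, 3.83 and 5.96 CPM in GFP libraries 1 to 4 and at 19.7, 19.3, 22.1 and 21.7 CPM in Trim27 libraries 1 to 4. The groups stood apart, with a 4.83-fold rise (log2 fold change 2.26, SE 0.16), although GFP library 4 was above the other GFP libraries. A near-identical copy of Nup54, Gm15790, had 0 counts with GFP and 49 with Trim27. Nup62 rose from 190.3 ± 4.70 to 248 ± 17.8 CPM (0.38, SD, n = 4 each). It shares 82 exon bases with Atf5 on the opposite strand and 88 with Il4i1.

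All 3 genes of the cytoplasmic face rose, with a median of 1.76, where 47.5% of all genes rose. Nup214, a filament nucleoporin that binds the exporter CRM1, was at 5.48, 9.58, 6.94 and 9.56 CPM in GFP libraries 1 to 4 and at 67.9, 64.2, 69.9 and 58.6 CPM in Trim27 libraries 1 to 4. The lowest Trim27 library was far above the highest GFP library, a rise of 8.26-fold (log2 fold change 3.04, SE 0.12, edgeR adjusted p = 4.8e-19). Gm13609 and Gm16534, annotated on the opposite strand of Nup214, had 1 count between them. Nup88, the partner of Nup214, rose from 35.7 ± 1.67 to 63.2 ± 4.78 CPM (0.82, SD, n = 4 each). Ranbp2 (Nup358), the large filament protein that holds SUMO-modified RanGAP1 at the pore, was at 3.20, 1.70, 3.23 and 3.08 CPM in GFP libraries 1 to 4 and at 11.7, 7.95, 7.62 and 10.7 CPM in Trim27 libraries 1 to 4. Its groups did not overlap either (1.76, SE 0.22).

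Both basket genes rose, as did 47.5% of all genes. Nup153, which anchors the basket, was at 22.3, 21.0, 17.1 and 19.9 CPM in GFP libraries 1 to 4 and at 61.7, 51.2, 49.8 and 51.6 CPM in Trim27 libraries 1 to 4. The groups were well apart, with Trim27 library 1 the highest (log2 fold change 1.41, SE 0.097, edgeR adjusted p = 4.2e-14). Nup50 rose little, from 44.7 ± 1.22 to 53.4 ± 3.93 CPM (0.26, SD, n = 4 each), and with the length trend taken out it was at -0.16 (edgeR adjusted p = 0.0605).

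The 2 pore genes that fell were Nup98 and Nup210, and neither call held under library size alone (-0.060 and 0.097, edgeR adjusted p = 0.605 and adjusted p = 0.0623). Nup98, whose gene encodes the mobile nucleoporin Nup98 and a Y complex subunit in 1 precursor, was at 23.0, 24.7, 22.1 and 24.0 CPM in GFP libraries 1 to 4 and at 19.6, 19.3, 16.9 and 17.0 CPM in Trim27 libraries 1 to 4. The groups were close but did not overlap (-0.36, SE 0.11). Nup210 (gp210), a membrane-spanning nucleoporin whose level is known to vary between cell types, was at 289, 256, 261 and 279 CPM in GFP libraries 1 to 4 and at 222, 239, 240.2 and 239 CPM in Trim27 libraries 1 to 4. Here too every Trim27 library was lower (-0.21, SE 0.051). With the length trend taken out the values were -0.86 for Nup98 and -0.71 for Nup210.

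**Figure D2:**
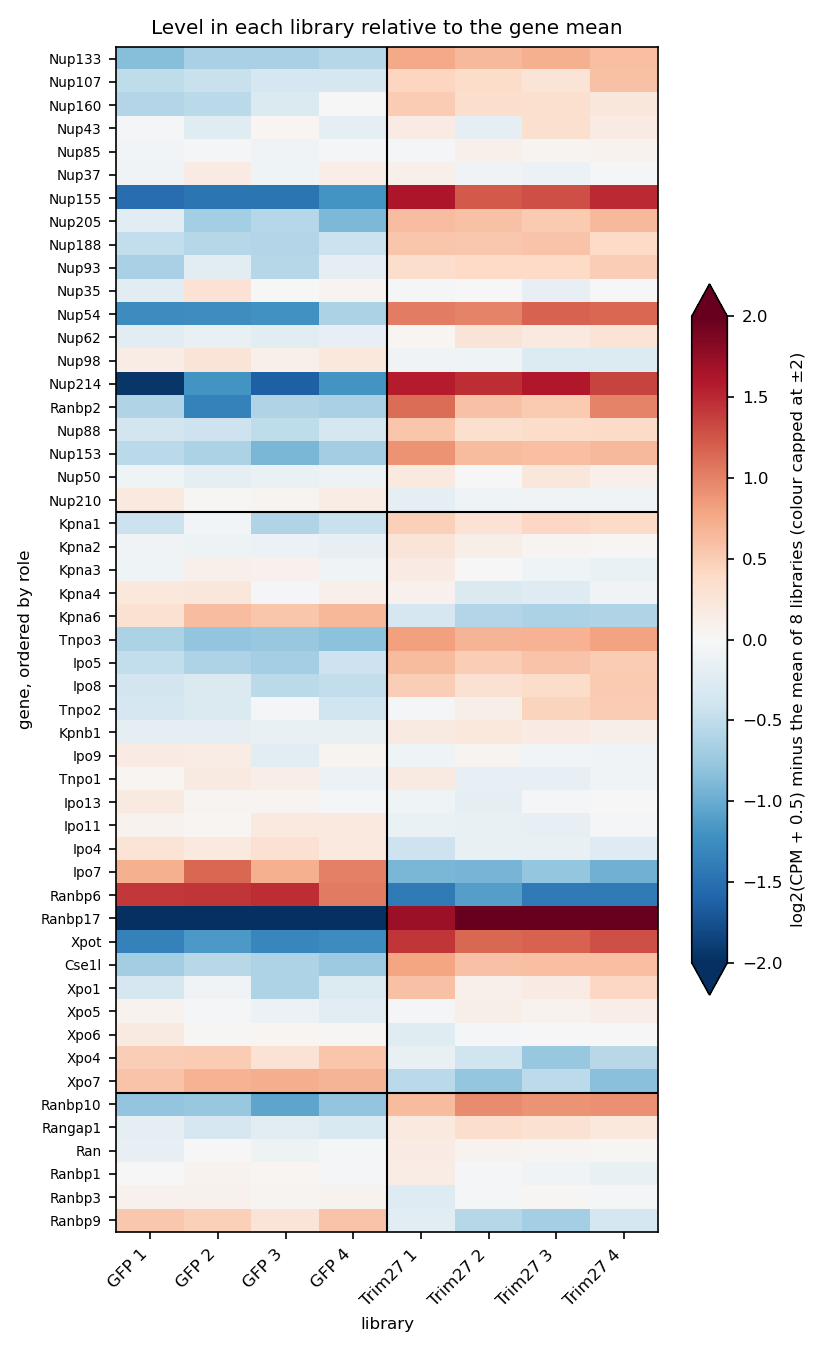
Level of the 51 genes (rows, ordered by role; black lines part pore genes, carriers and Ran cycle genes) in the 8 libraries (columns), as log2(CPM + 0.5) minus the gene's mean over all libraries, with the colour capped at ±2. Most pore rows turn from blue to red between the GFP and Trim27 libraries, whereas carrier rows turn in both directions.

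Importin alpha adaptors, which bind the classical nuclear localization signal, split by member. Kpna1 was at 21.9, 28.7, 19.4 and 21.7 CPM in GFP libraries 1 to 4 and at 41.5, 36.4, 39.7 and 39.0 CPM in Trim27 libraries 1 to 4, a rise of 0.77 on the log2 scale (SE 0.10, edgeR adjusted p = 6.5e-08). Kpna6, a close relative, was at 24.6, 30.5, 29.3 and 31.8 CPM in GFP libraries 1 to 4 and at 15.6, 13.1, 12.6 and 12.9 CPM in Trim27 libraries 1 to 4, a fall (-1.10, SE 0.11, edgeR adjusted p = 4.9e-10). The groups of both genes stood apart, and both calls held under every alternative run. Kpna2, the adaptor with the highest level per length in both groups, rose from 93.1 ± 2.84 to 109 ± 7.99 CPM (0.23, SD, n = 4 each). The table holds 4 near-identical copies of Kpna2, with 34, 219, 72 and 10 counts. Kpna3 was at 27.1 ± 1.87 and 26.7 ± 2.56 CPM (-0.020, edgeR adjusted p = 0.852), but it passed as a rise under library size alone (0.28, edgeR adjusted p = 0.0110) and as a fall with the length trend taken out (-0.35, edgeR adjusted p = 0.00189). Kpna4 passed as a fall (-0.26, edgeR adjusted p = 0.0192), but was at 0.045 under library size alone, and the call was lost without GFP replicate 2 (-0.23).

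Importin beta family carriers also moved both ways, with 5 of 12 up, 4 down and 3 not called. These shares, 41.7% and 33.3%, lay near those of all genes tested (47.5% and 38%). Kpnb1 (importin beta), the partner of importin alpha, was at 136, 136, 139 and 139.9 CPM in GFP libraries 1 to 4 and at 176, 179, 174 and 167 CPM in Trim27 libraries 1 to 4. The groups did not overlap (log2 fold change 0.34, SE 0.051), yet with the length trend taken out the value was -0.14 (edgeR adjusted p = 0.0190). Tnpo3, the importer of SR splicing factors, was at 12.9, 11.5, 11.7 and 11.3 CPM in GFP libraries 1 to 4 and at 36.0, 32.9, 33.1 and 35.9 CPM in Trim27 libraries 1 to 4. This was the largest rise of the family (1.54, SE 0.11). Tnpo3 shares 251 exon bases with Irf5 on the opposite strand, which went from 1.77 to 16.4 CPM, and the part of Irf5 reads in the Tnpo3 value was not tested. Ipo5, an importer of ribosomal proteins and histones among others, rose from 64.4 ± 5.43 to 138 ± 5.98 CPM (1.10) and Ipo8 from 13.1 ± 1.05 to 24.0 ± 1.74 CPM (0.87, SD, n = 4 each). Tnpo2 rose from 10.9 ± 1.36 to 16.0 ± 2.94 CPM with overlapping groups (0.55), and was at 0.12 with the length trend taken out (edgeR adjusted p = 0.439).

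Ipo7, an importer of ribosomal proteins and the closest relative of Ipo8, was at 29.6, 39.9, 29.4 and 36.5 CPM in GFP libraries 1 to 4 and at 9.27, 9.09, 10.2 and 8.91 CPM in Trim27 libraries 1 to 4. It was 3.62-fold lower (log2 fold change -1.85, SE 0.12, edgeR adjusted p = 1.4e-14), while Ipo8 rose. Ipo4 fell from 236 ± 8.98 to 169 ± 14.0 CPM (-0.48, SD, n = 4 each), and 2310 of its 3846 exon bases are shared with the annotated gene Gm49378 on the same strand. Ipo11 passed as a fall (-0.24), but stood at 0.059 under library size alone. Ranbp6, a relative of Ipo5, was at 3.08, 3.09, 3.23 and 2.26 CPM in GFP libraries 1 to 4 and at 0, 0.120, 0 and 0 CPM in Trim27 libraries 1 to 4. With 105 counts against 2, it was lower by a ratio of 91.4 (95% interval 24.7 to 765, for counting error only). Ranbp6 passed the filter only through the GFP group, so it had to differ, and the interval is no test of that. Both of its Trim27 counts lay in library 2. Ipo9 (-0.091), Ipo13 (-0.14) and Tnpo1 (-0.11) did not pass. With the length trend taken out all 3 passed as falls (-0.58, -0.41 and -0.60), and under library size alone all 3 were above 0 (0.21, 0.17 and 0.20), with Ipo9 passing as a rise. Ipo13 also passed as a fall without Trim27 replicate 1 (-0.17) or Trim27 replicate 4 (-0.19), and Tnpo1 without Trim27 replicate 1 (-0.23).

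Exportins held large changes in both directions. Xpot (exportin-t), the carrier of transfer RNA, was at 15.9, 18.3, 16.3 and 16.9 CPM in GFP libraries 1 to 4 and at 112, 92.1, 94.0 and 101 CPM in Trim27 libraries 1 to 4. The groups were far apart, with a 5.94-fold rise (log2 fold change 2.57, SE 0.085, edgeR adjusted p = 3.6e-21). An annotated near-identical copy of Xpot, Gm7389, is not listed under that symbol in the count table. Cse1l (CAS), which returns importin alpha to the cytoplasm, was at 26.0, 28.8, 27.6 and 25.4 CPM in GFP libraries 1 to 4 and at 74.0, 63.8, 64.7 and 64.9 CPM in Trim27 libraries 1 to 4, again without overlap (1.31, SE 0.081). Xpo1 (CRM1), the main protein exporter, was at 37.8, 45.2, 30.8 and 39.4 CPM in GFP libraries 1 to 4 and at 72.0, 51.2, 53.7 and 63.9 CPM in Trim27 libraries 1 to 4. Its groups came close without overlap (0.65, SE 0.11, edgeR adjusted p = 1.7e-05), and with the length trend taken out the value was 0.16 (edgeR adjusted p = 0.143). Xpo5, the carrier of precursor microRNAs, was at 47.8 ± 4.12 and 52.9 ± 2.54 CPM (0.14, edgeR adjusted p = 0.0818). It was at 0.45 under library size alone and at -0.29 with the length trend taken out, passing the test in each. It also passed as a rise with DESeq2 size factors (0.17), no filter (0.17), the 10 CPM filter (0.16), DESeq2's Wald test (0.17) and without GFP replicate 1 (0.19).

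Among exportins that fell, Xpo7, known for its high level in maturing erythroid cells, was at 48.7, 53.3, 54.6 and 52.8 CPM in GFP libraries 1 to 4 and at 22.3, 18.9, 22.5 and 18.0 CPM in Trim27 libraries 1 to 4. The groups were well apart (log2 fold change -1.35, SE 0.091, edgeR adjusted p = 3.2e-14). Xpo4 fell from 16.6 ± 1.32 to 8.64 ± 1.66 CPM (-0.94, SD, n = 4 each), and both falls held under every alternative run. Xpo6, the exporter of actin, was slightly lower (-0.14, edgeR adjusted p = 0.0356). That call was lost with DESeq2 size factors (-0.11), without a filter (-0.11) and without GFP replicate 1 (-0.11), among others, and under library size alone it passed as a rise (0.16, edgeR adjusted p = 0.0148). Ranbp17, a relative of Xpo7, was at 0 in all 4 GFP libraries and at 6.32, 9.69, 8.78 and 8.66 CPM in Trim27 libraries 1 to 4. It was at least 101-fold higher, against a floor of 3 counts over the GFP group. Ranbp17 passed the filter only through the Trim27 group, so it had to differ.

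**Figure D3:**
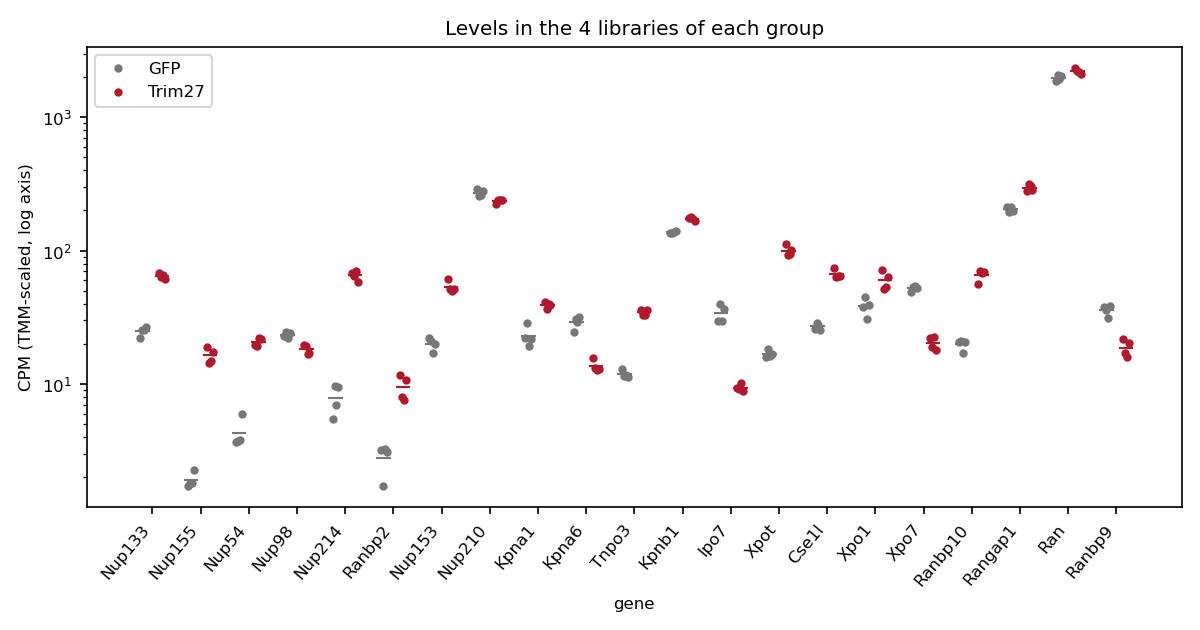
CPM (log axis) of 21 genes in the 4 GFP libraries (grey points) and the 4 Trim27 libraries (red points), with horizontal lines at the group means. The groups of all 21 genes stand apart, as did those of 45.3% of all genes with Trim27 above and 35.4% with Trim27 below. Most of the 21 were chosen as the largest rise or fall of their role or after their values were seen. Under library size alone the direction of Nup210 turns and the Nup98 call is lost. Once the length trend is removed the direction of Kpnb1 turns and the calls of Ran and Xpo1 are lost.

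Ran, the GTPase that gives transport its direction, had the highest level per length of all members, 819 CPM per kilobase with GFP and 914 with Trim27. It was at 1867, 2088, 1947 and 2037 CPM in GFP libraries 1 to 4 and at 2344, 2209.5, 2178 and 2123 CPM in Trim27 libraries 1 to 4. The groups did not overlap, but the rise was small (log2 fold change 0.16, SE 0.045, edgeR adjusted p = 0.00203), and with the length trend taken out it was 0.060 (edgeR adjusted p = 0.233). A near-identical copy of Ran, Gm13461, held 5919 counts. Rangap1, the GTPase activator at the cytoplasmic face, was at 214, 194, 214 and 199.8 CPM in GFP libraries 1 to 4 and at 281, 315, 304 and 285 CPM in Trim27 libraries 1 to 4, without overlap (0.53, SE 0.052). Ranbp1, its cytoplasmic cofactor, was at 674 ± 21.0 and 655 ± 57.6 CPM (-0.042, edgeR adjusted p = 0.454). It passed as a rise under library size alone (0.26) and once the length trend was taken out (0.59), and as a fall without Trim27 replicate 1 (-0.13). Ranbp3, a cofactor of CRM1, was slightly lower (-0.14, edgeR adjusted p = 0.0218), but it passed as a rise under library size alone (0.16, edgeR adjusted p = 0.00815). The call was lost with DESeq2 size factors (-0.12), without a filter (-0.11) and by DESeq2's Wald test (-0.12).

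Ranbp9 and Ranbp10 are related scaffold proteins named for binding Ran, and their transcripts moved in opposite directions. Ranbp10 was at 20.8, 21.1, 17.1 and 20.7 CPM in GFP libraries 1 to 4 and at 56.6, 70.1, 67.9 and 68.6 CPM in Trim27 libraries 1 to 4 (log2 fold change 1.72, SE 0.092, edgeR adjusted p = 1.4e-16). Ranbp9 was at 37.7, 36.0, 31.0 and 38.5 CPM in GFP libraries 1 to 4 and at 21.8, 17.1, 15.8 and 20.1 CPM in Trim27 libraries 1 to 4 (-0.94, SE 0.11). Neither gene's groups overlapped, and both calls held under every alternative run. Ranbp9 shares 187 exon bases with Nol7 on the opposite strand, which went from 446 to 314 CPM, and the part of Nol7 reads was not tested.

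Summed over the class, pore genes took 1274 to 1355 CPM with GFP and 1656 to 1686 CPM with Trim27, a ratio of means of 1.27. Nup85, Nup210, Nup62 and Nup37, the 4 most abundant pore genes, made up 73.2% of the sum with GFP and 60.0% with Trim27. Carriers took 1201 to 1233 and then 1347 to 1405 CPM, a ratio of 1.13. The ratio for Ran cycle genes was 1.10. The SD over the 20 pore genes of their log2 levels per kilobase was 2.53 with GFP and 1.87 with Trim27, and over the 23 carriers counted in both groups it was 1.39 and 1.59. The same SD over all genes is not given here. Low genes rose and high genes fell across all genes tested, with median log2 fold changes of 1.91 under 2 log2 CPM and -0.60 at 10 or more.

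Fold changes in these libraries moved with abundance and transcript length, so both classes were set beside genes of like kind. From 4 to 6 log2 CPM, where 47.4% of all genes rose and 38% fell, 10 of 12 pore genes rose and 1 fell, against 6 rises and 4 falls among 15 carriers. From 2 to 4 log2 CPM, with 55% and 32.1% of all genes, 3 of 3 pore genes rose, and 1 of 2 carriers rose and 1 fell, leaving aside Ranbp17, which had to differ. From 6 to 8 log2 CPM, with 33.9% and 52.6%, 2 of 4 pore genes rose and 1 fell, and 3 of 6 carriers rose and 3 fell. Members outside these ranges were Ranbp6 below 2 log2 CPM (58.5% of all genes rose and 23.1% fell), Nup85 and Ranbp1 from 8 to 10 (23.5% and 64%), and Ran above 10 (12.8% and 81.2%).

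By length, the median of all genes went from -0.66 under 1000 bases to 0.32 from 2000 to 4000 bases and 0.63 from 4000 to 8000 bases. From 4000 to 8000 bases the median was 1.12 for 10 pore genes and 0.34 for 17 carriers, and the same for 15 carriers without Ranbp6 and Ranbp17. From 2000 to 4000 bases it was 0.82 for 6 pore genes and 0.047 for 4 carriers. At 8000 bases or more, where 60.3% of all genes rose and 27.4% fell (median 0.74), 1 of 5 members rose (Ranbp2) and 3 fell, the carriers Kpna4, Xpo4 and Xpo7 (median of the 5, -0.26). From 1000 to 2000 bases, where 40.1% rose and 44.5% fell, Nup43 rose and Nup37, Nup35 and Ranbp1 were not called. The median length was 5225 bases for pore genes and 5001 for carriers. With the length trend of each library taken out, 14 pore genes rose and 2 fell, and 8 carriers rose and 15 fell, against 49.9% and 33.8% of all genes. With the trend fitted on genes of at least 6 log2 CPM, pore genes gave 14 rises and 2 falls, and carriers 11 rises and 12 falls, against 47.5% and 35.8% of all genes.

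**Figure D4:**
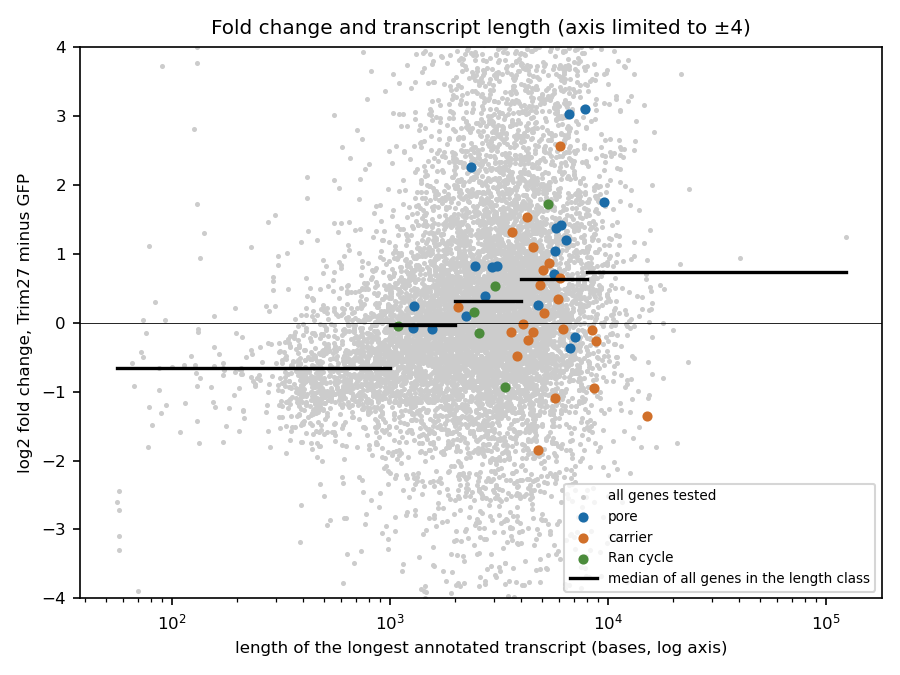
Log2 fold change (Trim27 minus GFP, axis limited to ±4) against the length of the longest annotated transcript (bases, log axis) for all genes tested (grey) and for pore, carrier and Ran cycle genes (coloured). Black lines are the medians of all genes in each length class, which climb from -0.66 to 0.74, and at 4000 to 8000 bases the pore median is 1.12 and the carrier median 0.34.

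**Figure D5:**
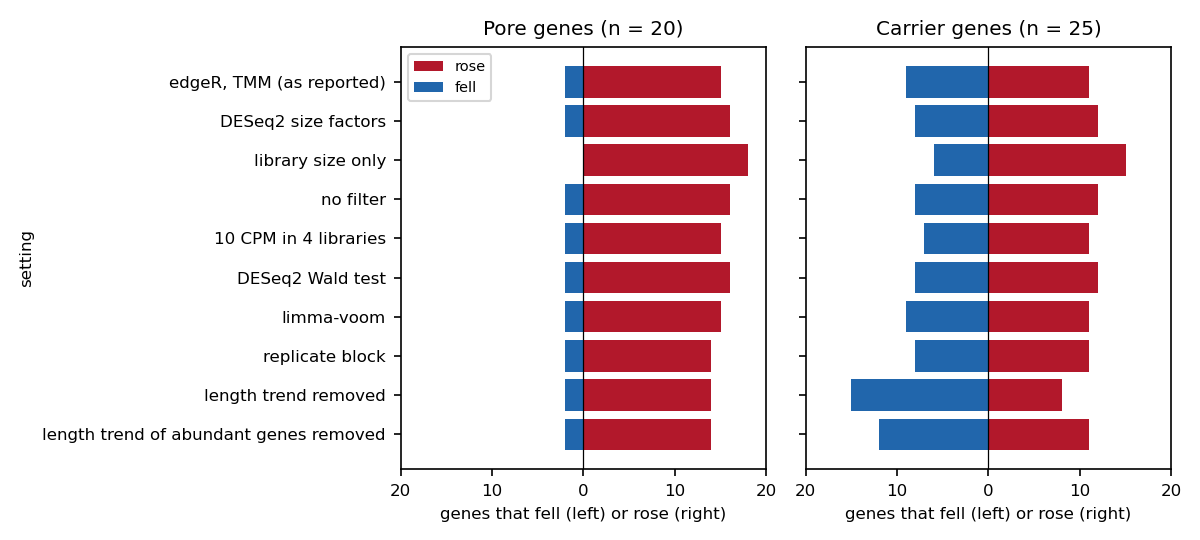
Number of pore genes (left, n = 20) and carriers (right, n = 25) that rose (red) or fell (blue) under the reported fit and the other settings named on the axis. Pore rises range from 14 to 18 and pore falls from 0 to 2, whereas carriers go from 15 rises and 6 falls under library size alone to 8 rises and 15 falls with the length trend removed.

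Further genes of the pathway, listed by function, gave 20 rises, 9 falls and 4 without a call among 33 tested of 34, where 47.5% of all genes rose and 38% fell. Sorted by role after their values were seen, 8 of 11 further pore genes rose and 2 fell (median log2 fold change 0.65). Gle1, which activates the helicase that strips export factors from mRNA at the cytoplasmic face, rose from 5.67 ± 1.20 to 47.3 ± 2.69 CPM (3.06, SD, n = 4 each). Snupn (snurportin, the import adaptor of snRNPs) rose by 2.54 and the lamin gene Lmnb2 by 2.29. The largest falls were those of Ncbp2, a cap-binding subunit (-1.53), Pcid2, an mRNA export factor (-0.75), and Nutf2, the import factor of Ran (-0.65). Of 13 RNA export genes tested 8 rose and 4 fell, and of 3 lamins 1 rose and 2 fell, shares to be read against the same background.

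Genes of dividing cells, in which pores are rebuilt after mitosis, were set beside these values. Of 12 such genes, 8 rose and 4 fell, beside 47.5% and 38% of all genes (median 0.30), with sums of 2991 to 3058 CPM for GFP and 3211 to 3270.2 CPM for Trim27. Top2a rose (1.25), whereas Mki67 fell (-0.48). Their part in the pore and carrier results was not tested.

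Members varied little within groups, with a median coefficient of variation of 8.08% over GFP libraries and 7.55% over Trim27 libraries. Trim27 replicate 1 held the highest Trim27 value for 23 of the 51 members. Without it, 29 members rose and 17 fell, against 29 and 13 with all libraries.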

How the data were processed

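The deposited table gives raw counts of reads for each gene symbol in each library, without normalization by the authors. According to the submitters' processing notes, bcl2fastq, HISAT2 and featureCounts were used with the build NCBIM37, while versions, annotation and strand setting are not given. Small counts were mostly even (64.7% to 72.0% of counts from 1 to 10), so both reads of a pair may have been counted, and counting intervals and floors may then be too narrow. Without strand, reads of overlapping genes cannot be told apart.

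The counts were tested in edgeR 4.0.16 (R 4.3.3) with filterByExpr (minimum count 10, minimum total 15), TMM scaling and the robust quasi-likelihood test, 2-sided, over the 11040 genes kept, with Benjamini-Hochberg adjustment. A row without a gene name was left out and held 0 counts. The script was tested on simulated data. Libraries of a group correlated at 0.990 to 0.995 across genes and differed beyond sampling noise (chi-square per degree of freedom 2.65 to 11.3). Between the groups the correlations were 0.784 to 0.800 and the chi-square values 116 to 148. Any difference in preparation between the groups could not be told apart from that between the viruses. No sign was seen that the replicate numbers pair libraries, though the check used cannot show that they were unpaired.

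Members, roles and lists were chosen with earlier results of these data known. Values in every library are given for Ran, Rangap1, Kpnb1, Xpo1, Cse1l, Nup98 and Ranbp2 and, in each role, for the largest rise and fall past the threshold. Xpot and Ipo7 were added after their values were seen. An erythroid marker is not reported here. Of the further pathway list the 3 largest rises and falls are named, as are Seh1l, Ahctf1 and Sec13 of the Y complex. Beside the lists given in the text, 0 of 6 B cell markers tested rose and 4 fell by edgeR, and of 3 T and NK cell markers 1 rose and 2 fell. Of all genes tested, 47.5% rose and 38% fell. The groups of the B cell markers Cd79a and Ebf1, which fell, overlapped. The T and NK cell marker Nkg7, which fell, passed the filter only through the GFP group, so it had to differ. Lengths and exon overlaps come from GENCODE M21 (longest transcript), and a near-identical copy is a match of at least 95% identity over 200 bases. Alternatives were DESeq2 1.42.0 (size factors, Wald test), library size alone, no filter, a filter of 10 CPM in 4 libraries, limma-voom (limma 3.58.1), the replicate block, both length offsets and leaving out each library. Halved counts, and members without overlap or copy (in the table, or in the annotation), were added after seeing the data.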

Additional observations from a re-analysis of the deposited data

Results flagged for a closer look

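In 108 groups of 4 libraries (51 members and 3 class sums, in each group), 1 library stood far from the others 13 times, where chance gives about 1 in 20. Trim27 replicate 1 was that library for 6 members. It was high for Nup153 (61.7 CPM, next 51.6), Kpna6 (15.6, next 13.1) and Cse1l (74.0, next 64.9), and low for Nup210 (222, next 239), Xpo6 (94.8, next 109) and Ranbp10 (56.6, next 67.9). Nup35 was low in Trim27 replicate 3 (34.1 CPM, next 37.7), and Ranbp6 had counts in Trim27 replicate 2 only (0.120 CPM).

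Within the GFP group, Nup54 was high in replicate 4 (5.96 CPM, next 3.83) and Xpo6 in replicate 1 (128, next 116). Ranbp2 was low in replicate 2 (1.70, next 3.08), Ranbp6 in replicate 4 (2.26, next 3.08) and Ranbp10 in replicate 3 (17.1, next 20.7). Without GFP replicate 1 the Xpo6 call was lost (log2 fold change -0.11).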

How the results depend on the processing

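Of 29 rises and 13 falls among members, the falls dropped to 7 under library size alone, where 0 pore genes fell by edgeR (0 also unadjusted). DESeq2's Wald test was run with its own size factors and not with library size alone, and gave 2 pore falls. Removing the length trend gave 15 carrier falls. The pore median (0.82) was 1.12 under library size alone, 0.62 without the length trend, 0.71 without that of abundant genes, and 0.75 to 0.85 when 1 library was left out. The carrier median (-0.020) was 0.0074 with DESeq2 size factors and the Wald test, 0.28 under library size alone, 0.0092 without a filter, -0.35 without the length trend and -0.16 without that of abundant genes. Leaving out 1 library gave -0.10 to 0.0085, with values above 0 without GFP replicate 2 or GFP replicate 3. Of the 14 pore genes and 19 carriers with no overlap or copy listed in the count table, 10 and 6 rose and 2 and 9 fell. Of the 13 pore genes and 13 carriers with none in the annotation either, 9 and 4 rose and 2 and 5 fell, in each case among fewer genes. The cause of the other changes was not tested.

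Signs changed under library size alone for Nup37 (0.23), Nup35 (0.21), Nup210 (0.097), Kpna3 (0.28), Kpna4 (0.045), Ipo9 (0.21), Ipo11 (0.059), Ipo13 (0.17), Tnpo1 (0.20), Xpo6 (0.16), Ranbp1 (0.26) and Ranbp3 (0.16). Without the length trend they changed for Nup37 (0.42), Nup35 (0.18), Nup50 (-0.16), Kpnb1 (-0.14), Xpo5 (-0.29) and Ranbp1 (0.59), and without that of abundant genes for Nup37 (0.13), Xpo5 (-0.042) and Ranbp1 (0.27). Kpna3 was at 0.0074 with DESeq2 size factors and the Wald test, 0.0092 without a filter, and -0.11 to 0.0085 (0.0035 without GFP replicate 3) when 1 library was left out. Deviations of same-numbered libraries correlated at -0.23, -0.17, 0.063 and -0.034. No sign of pairing by number was seen, but weak correlations cannot show that the libraries were unpaired. With the replicate number as a block 28 members rose and 12 fell. Depth limits Ranbp6, Ranbp17, Nup155 and Ranbp2 most, each with about 100 counts or fewer in a group.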
